A study of Saccharomyces cerevisiae with 12 samples.

Results

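The comparison described here is that of a Saccharomyces cerevisiae strain labelled as co-expressing TAL and ADH with its control strain, both without furfural, and it uses 4 of the 12 arrays of the series. The members were chosen by their labels alone: runs 1 and 2 of the TAL-ADH strain and runs 1 and 2 of the control strain, all at 0 mM furfural. Both strains derive from MT8-1X, named MT8-1X/TAL-ADH and MT8-1X/404-405 in the labels, and all cultures were sampled at 6 h. The rest of the series holds the same strains at 70 mM furfural and a strain labelled as expressing TAL (MT8-1X/TAL-405) at both concentrations, so that 6 groups have 2 runs apiece. What 404 and 405 stand for, which promoter drives TAL or ADH, which genes these are, whether a strain is 1 clone and whether both runs came from separate cultures is not stated in the labels. Any p-value below therefore covers the spread between runs alone, and that spread may be technical. TAL and ADH are taken here as TAL1 and ADH1.

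Furfural is an aldehyde released when plant biomass is broken down, and it inhibits yeast fermentation. Transaldolase, the product of TAL1, moves a dihydroxyacetone unit between sugar phosphates in the non-oxidative pentose phosphate pathway, which carries xylose-derived carbon into glycolysis. Alcohol dehydrogenase 1, the product of ADH1, reduces acetaldehyde to ethanol at the end of glycolysis, and alcohol dehydrogenases can also reduce furfural to its alcohol. At 0 mM the comparison asks how the strain carrying both genes differed from its control before any inhibitor was present.

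Each array was a single-colour Agilent array hybridised with Cy3-labelled RNA. Levels are given as scaled log2 signals, the log2 of the processed signal minus the 75th percentile of the gene probes on the same array, and differences are TAL-ADH minus control on that scale. Levels of different probes cannot be ranked against each other. Of 6256 gene probes, 6083 were tested and 173 were left out as dim on all groups. The 2 TAL-ADH arrays lay on a slide shared with the 2 TAL arrays at 0 mM, and the 2 control arrays on a slide shared with the 2 TAL-ADH arrays at 70 mM, so slide and strain cannot be told apart in this comparison. One comparison within the second of these slides, TAL-ADH at 70 mM minus control at 0 mM, is set beside the results as a description. It uses the same control arrays and also differs in furfural.

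The TAL-ADH arrays differed from each other more than the control arrays did. Over all genes, the correlation between runs was 0.945 in TAL-ADH and 0.985 in control. The 75th percentile of the gene signal was 7414 and 2529 units in TAL-ADH runs 1 and 2, the highest and the lowest of the 12 arrays, and 4712 and 3962 units in control runs 1 and 2. Of 10 positive control probes, 9 had their highest scaled signal of all 12 arrays in TAL-ADH run 2. The slide as a whole also stood apart in these probes. For 6 of the 10, the unscaled signal was higher on all 4 arrays of the slide holding TAL-ADH at 0 mM than on the 8 others. Their scaled differences, TAL-ADH minus control at 0 mM, ran from 0.10 to 1.67 over the 10 probes. TAL-ADH run 1 correlated with control runs 1 and 2 at 0.979 and 0.966, and TAL-ADH run 2 at 0.953 and 0.964.

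After adjustment over all 6083 genes (limma with Benjamini-Hochberg adjustment), 1 gene passed between the strains, which is 0.0164% of those tested. It was AI4, which was higher in TAL-ADH but not above background in control, and none was lower. At an unadjusted p under 0.05 there were 429 genes (7.05%), of which 286 (4.70%) were higher and 143 (2.35%) were lower in TAL-ADH. The higher genes include probes not detected in control, which entered the test only through groups where they were detected. A difference of at least 1 on the log2 scale, in either direction, was seen for 225 genes (3.70%). The median difference over all genes, with its sign, was 0.017 and the median SE was 0.31. In 1276 genes (21.0%) both TAL-ADH arrays were above both control arrays, and in 1075 (17.7%) both were below. Adjusted calls in the comparisons set beside this one below were 28.4% of genes for TAL minus control at 0 mM and 25.7% for TAL-ADH minus TAL at 0 mM. They were 0.0329% for TAL-ADH at 70 mM minus control at 0 mM, and 19.6% for the strain difference at 70 mM minus that at 0 mM. These comparisons share arrays with each other.

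TAL1 was higher on both arrays labelled TAL-ADH. Its scaled log2 signal was 3.65 and 3.96 in TAL-ADH runs 1 and 2, against 2.34 and 2.81 in control runs 1 and 2. The groups did not overlap, and the means were 3.81 ± 0.22 in TAL-ADH and 2.58 ± 0.33 in control (SD, n = 2 each). The difference of 1.23 (SE 0.34, 2.35-fold) had an unadjusted p of 0.00505 and did not pass adjustment (limma, adjusted p = 0.394). In bulk RNA, a level that differs per cell and a share of cells that differs cannot be told apart. The TAL strain at 0 mM had TAL1 signals of 3.44 and 3.98, and the TAL-ADH strain at 70 mM had 3.58 and 4.46. All 6 of these arrays were thus above both control arrays at 0 mM. The TAL strain at 70 mM had 2.77 and 2.87 in runs 1 and 2, and overlapped with control at 0 mM, since its run 1 was below control run 2.

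ADH1 did not separate the strains. It read 5.01 and 6.38 in TAL-ADH runs 1 and 2, against 6.21 and 6.38 in control runs 1 and 2. TAL-ADH run 1 was the lowest of these and run 2 was level with the control arrays, and the difference was -0.60 (SE 0.42, limma adjusted p = 0.855). The ADH part of the label is thus not seen as a higher ADH1 signal at 0 mM, and TAL-ADH below means the arrays so labelled. The TAL strain at 0 mM had 4.65 and 5.18, and the TAL-ADH strain at 70 mM had 5.98 and 6.20. Whether the array's ADH1 probe reads the introduced gene is not given in the sources used here.

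**Figure D1:**
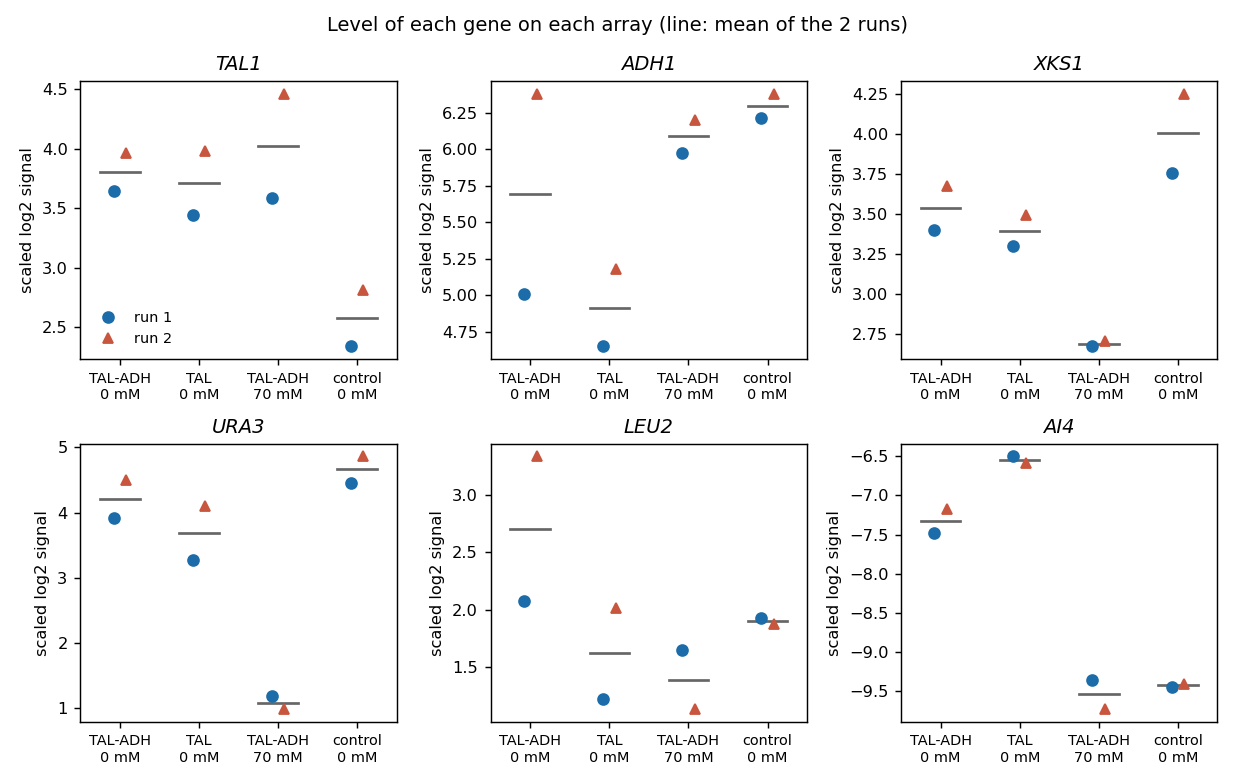
Scaled log2 signal (vertical axis) of 6 genes on single arrays, for TAL-ADH at 0 mM furfural, TAL at 0 mM, TAL-ADH at 70 mM and control at 0 mM from left to right; circles are run 1, triangles run 2 and lines the mean of both. TAL1 reads 3.65 and 3.96 in TAL-ADH at 0 mM, above 2.34 and 2.81 in control, while ADH1 spans 5.01 to 6.38 in TAL-ADH at 0 mM, and URA3 is low only in TAL-ADH at 70 mM among the groups drawn.

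None of the other tested genes that plasmids or strain construction may touch passed adjustment. XKS1, which encodes xylulokinase and feeds xylulose into the pentose phosphate pathway, read 3.40 and 3.67 in TAL-ADH against 3.76 and 4.25 in control. Both TAL-ADH arrays were below both control arrays, and the difference was -0.47 (SE 0.23, limma adjusted p = 0.777). URA3, a uracil synthesis gene used as a selection marker, read 3.91 and 4.50 in TAL-ADH against 4.46 and 4.86 in control, with overlapping groups. The same strain at 70 mM had URA3 signals of 1.18 and 0.99, and the TAL strain at 70 mM had 0.64 and 0.03, whereas the other 8 arrays of the series lay between 3.27 and 5.23. The strain labelled TAL-ADH thus had a high URA3 signal at 0 mM and a low one at 70 mM.

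LEU2, a leucine synthesis gene and a common marker, read 2.08 and 3.34 in TAL-ADH against 1.93 and 1.88 in control. The groups did not overlap, but the TAL-ADH arrays were far apart and the difference of 0.81 (SE 0.52) had a limma adjusted p of 0.838. Of the other markers, ADE1, an adenine synthesis gene, differed by 0.60 (SE 0.25, unadjusted p 0.0390), and TRP1, ADE2, LYS2 and MET17 differed by -0.40, 0.12, -0.19 and -0.09, each less than its SE. HIS3 was not well above background on any of the 12 arrays.

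The gene that passed adjustment was AI4 (Q0065), an open reading frame within an intron of the mitochondrial COX1 gene. It read -7.48 and -7.17 in TAL-ADH runs 1 and 2, against -9.45 and -9.42 in control runs 1 and 2, a difference of 2.11 (SE 0.21, limma adjusted p = 0.0224). It was well above background on 1 of the 2 TAL-ADH arrays, run 2, and on neither control array, and it entered the test through the TAL arrays at 0 mM, where it was detected on both. The size of its difference thus rests on control signals below background, and no lower bound of the fold above 1 could be given. The call was lost under quantile normalization (1.46, adjusted p = 0.307), under normexp (0.54, adjusted p = 0.999), with the 4 arrays alone, with the 6 arrays at 0 mM, and without any 1 array other than TAL-ADH run 1. The TAL arrays at 0 mM, on the same slide as the TAL-ADH arrays, read -6.50 and -6.59, and the TAL-ADH arrays at 70 mM, on the slide of the control arrays, read -9.36 and -9.74. AI4 was therefore high on all 4 arrays of 1 slide and low on all 4 of the other, and the part of the slide in its difference cannot be told apart from that of the strain.

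AI4 was 1 of 13 tested genes of the mitochondrial genome. Both TAL-ADH arrays were above both control arrays in 3 of them (23.1%, near the 21.0% of all genes), namely AI4, AI3 and AI5_ALPHA, and both were below in none. AI5_ALPHA read 1.66 and 1.07 in TAL-ADH against 0.49 and 0.72 in control. COX1 itself, a subunit of cytochrome c oxidase, read 3.21 and 5.03 in TAL-ADH against 4.51 and 4.66 in control, and COB, the cytochrome b gene, read 4.25 and 5.76 in TAL-ADH against 4.32 and 5.85 in control. Their groups overlapped. The median over the 13 genes was 0.55, and it was -0.14 for TAL-ADH run 1 and 0.67 for run 2, each minus the control mean. In all 13 control run 2 was above control run 1, by a median of 0.64. Against the control of the same run number the medians were 0.24 and 0.37. Within the control slide, TAL-ADH at 70 mM minus control at 0 mM had a median of -0.19, with 12 of 13 negative.

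The 20 genes with the smallest p held 16 that were higher and 4 that were lower in TAL-ADH. In direction alone, none was particular to TAL-ADH. On the TAL arrays at 0 mM, on the same slide as the TAL-ADH arrays, all 16 were also above both control arrays. All 4 lower genes were below both control arrays there too. The size was not shared for BAP2, where TAL minus control was -0.40 (limma adjusted p = 0.287) and TAL-ADH minus TAL was -1.07 (limma adjusted p = 0.0177). For LEU1, PGK1 and YBR137W, TAL minus control was -1.83, -2.38 and -2.27. Of the 16, 9 were not well above background on either control array, and for these a fold is given only as a bound, the TAL-ADH mean over the lowest signal that counted as detected on the control arrays. These 9 entered the test only through groups where they were detected on both arrays. For all of them but AI4, TAL-ADH at 0 mM was itself such a group. The direction of these 9 against control is therefore not a result apart from that filter. On the main scaling, YDL118W was at least 8.91-fold higher in TAL-ADH, YOL079W at least 3.46-fold, YBR292C at least 3.30-fold and YDR015C at least 2.87-fold. Without TAL-ADH run 2 these bounds were 3.36 for YDL118W, 2.01 for YOL079W, 2.93 for YBR292C and 1.38 for YDR015C. The bounds also depend on the processing. Over the other processing settings and left-out arrays, the lowest log2 differences of these 4 genes, in the same order, were 2.07, 0.98, 0.79 and 1.09. Each is smaller than the bound from both runs. YDL118W read -5.55 and -2.74 in TAL-ADH runs 1 and 2, against -8.97 and -8.04 in control. Run 2 was above run 1 in TAL-ADH for 14 of the 16. Of the 20 genes, 9 have no locus in the RefSeq table used for names, so no role is given to them.

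Some of the 16 were well above background in both strains. BIO5, which encodes a transporter of a biotin precursor, read -3.06 and -2.40 in TAL-ADH against -4.39 and -4.79 in control, a difference of 1.86 (SE 0.33, limma adjusted p = 0.271). EFM6, which encodes a methyltransferase of a translation elongation factor, read -2.48 and -2.59 in TAL-ADH against -3.79 and -3.76 in control, a difference of 1.24 (SE 0.21). For ATG14, a subunit of the lipid kinase complex that starts autophagy, the difference was 1.09 (SE 0.24), with 1 of the 2 control arrays above background. ECM18 differed by 1.00 (SE 0.21). In each of these 4 genes both TAL-ADH arrays were above both control arrays. With TAL-ADH run 1 left out, 62 genes passed adjustment, BIO5, YDL118W and BAP2 among them, and leaving out any other array gave 0.

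The 4 lower genes were LEU1, YBR137W, PGK1 and BAP2. LEU1, the isopropylmalate isomerase of leucine synthesis, read -0.80 and -1.14 in TAL-ADH against 1.21 and 0.94 in control, a difference of -2.05 (SE 0.43, limma adjusted p = 0.332). BAP2, a permease for branched-chain amino acids, read 1.15 and 0.42 in TAL-ADH against 2.25 and 2.27 in control, a difference of -1.48 (SE 0.26, limma adjusted p = 0.271). YBR137W read -0.26 and -0.13 in TAL-ADH against 1.52 and 1.95 in control. PGK1 belongs to glycolysis and is described below.

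Glycolysis had the lowest median difference of the 41 gene lists, a rank it lost under quantile normalization, where its median was -0.41 beside -0.78 for lysine synthesis and -0.52 for branched-chain amino acid synthesis. Of its 20 tested genes, pyruvate decarboxylases included, 19 had a negative difference, 15 had both TAL-ADH arrays below both control arrays (75%, against 17.7% of all genes), and 11 were lower at an unadjusted p under 0.05 (55%, against 2.35%). No member of this or of any other list passed adjustment over all genes, apart from AI4. The median was -0.87, beside 0.017 over all genes, and -1.22 and -0.64 for TAL-ADH runs 1 and 2 against the control mean. In the comparison within the control slide, TAL-ADH at 70 mM minus control at 0 mM, the median was -0.49 and 18 of 20 were negative. The TAL strain at 0 mM, on the slide of the TAL-ADH arrays, was lower still. TAL minus control had a median of -1.95, with 17 negative and 3 positive, and TAL-ADH minus TAL had a median of 1.02.

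PGK1, phosphoglycerate kinase, read 3.90 and 3.81 in TAL-ADH against 5.28 and 5.87 in control, a difference of -1.72 (SE 0.33, limma adjusted p = 0.288). The glyceraldehyde-3-phosphate dehydrogenase gene TDH2 read 1.51 and 2.06 in TAL-ADH against 3.05 and 3.69 in control, a difference of -1.59 (SE 0.35), and TDH3, a second gene of that enzyme, differed by -1.29 (SE 0.37). These 2 genes are close copies, so their probes may read each other's RNA. ENO1 and ENO2, the enolases, differed by -1.42 (SE 0.43) and -1.14 (SE 0.38), and are close copies too.

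Further along the pathway, CDC19, the main pyruvate kinase, read 4.58 and 5.22 in TAL-ADH against 5.86 and 6.10 in control, a difference of -1.08 (SE 0.27). GPM1, phosphoglycerate mutase, differed by -1.08 (SE 0.28), PFK2, a subunit of phosphofructokinase, by -0.94 (SE 0.26), and TPI1, triose-phosphate isomerase, by -0.89 (SE 0.32). PDC1, the main pyruvate decarboxylase, read 4.49 and 5.53 in TAL-ADH against 5.71 and 5.87 in control, a difference of -0.78 (SE 0.32). PDC5, a minor pyruvate decarboxylase, was the member with a positive difference, reading -1.52 and -1.80 in TAL-ADH against -2.17 and -2.15 in control. In 16 of the 20 genes TAL-ADH run 2 was above run 1, and in all 20 control run 2 was above control run 1.

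**Figure D2:**
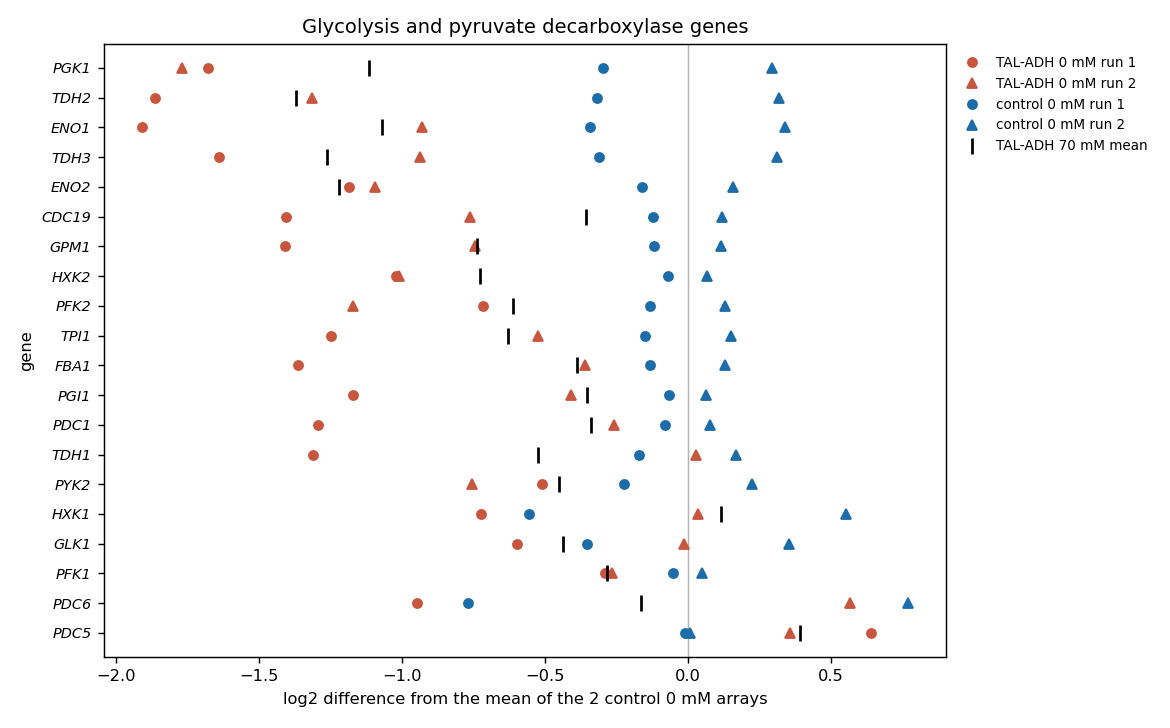
Log2 difference from the mean of the 2 control arrays (horizontal axis) for the 20 tested genes of glycolysis and pyruvate decarboxylation (rows), on each TAL-ADH array at 0 mM (red) and each control array at 0 mM (blue), with circles for run 1 and triangles for run 2. The black bar is the TAL-ADH mean at 70 mM; 19 of 20 genes have a negative mean difference at 0 mM, from -1.72 for PGK1 to 0.50 for PDC5.

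The pentose phosphate pathway besides TAL1 did not move one way. Its 10 tested genes had a median of -0.10, with 4 positive and 6 negative. SOL3, a 6-phosphogluconolactonase of the oxidative branch, read 0.44 and 0.96 in TAL-ADH against -1.15 and -0.70 in control, a difference of 1.62 (SE 0.37, limma adjusted p = 0.345). GND1, the main 6-phosphogluconate dehydrogenase of the next step, read 4.24 and 5.31 in TAL-ADH against 3.31 and 4.18 in control, a difference of 1.03 (SE 0.49). Both genes had TAL-ADH above control on both arrays, and their differences within the control slide (TAL-ADH at 70 mM minus control at 0 mM) were 1.40 and 1.21. ZWF1, the dehydrogenase that opens the oxidative branch, differed by -0.21 (SE 0.29). Of the non-oxidative genes, the transketolase TKL1 differed by -0.01 (SE 0.35) and the epimerase RPE1 by -0.56 (SE 0.35).

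Among 9 further alcohol dehydrogenase genes the median was -0.27. ADH3, the mitochondrial enzyme, read 1.64 and 2.12 in TAL-ADH against 2.46 and 2.74 in control, a difference of -0.72 (SE 0.25). It was the one member at an unadjusted p under 0.05 (11.1% of the 9, against 2.35% of all genes that were lower). ADH2, the glucose-repressed isozyme that oxidises ethanol, differed by -0.47 (SE 0.86), with overlapping groups. ADH6 and SFA1, whose enzymes reduce aldehydes including furan aldehydes, differed by 0.12 (SE 0.39) and -0.27 (SE 0.31). Of 24 aldehyde reductases and related oxidoreductases, 2 were at an unadjusted p under 0.05 and both were lower (8.33%, against 2.35% of all genes). These were YNL134C, which differed by -0.94 (SE 0.25), and OYE2, an NADPH oxidoreductase, which read 2.21 and 2.43 in TAL-ADH against 2.98 and 3.10 in control.

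Hexose transporter genes held higher members of low signal. The median over 20 tested genes was 0.28, and 5 were higher at an unadjusted p under 0.05 (25%, against 4.70% of all genes). HXT17 read -2.47 and -1.39 in TAL-ADH against -3.88 and -3.63 in control, a difference of 1.82 (SE 0.41, limma adjusted p = 0.335). HXT13, 1 of these 5, read -5.53 and -6.42 in TAL-ADH against -8.87 and -8.43 in control. Neither control array was above background for HXT13, so on the main scaling it was at least 2.51-fold higher (1.84-fold without TAL-ADH run 1). Over the other processing settings and left-out arrays its lowest log2 difference was 0.90. HXT13 entered the test only through groups where it was detected, and its direction against control is not a result apart from that filter. HXT15 differed by 0.91 (SE 0.33) and HXT16 by 0.61 (SE 0.34). These 4 transporters form a closely related group, whose probes may read each other's RNA. In TAL-ADH at 70 mM, on the control slide, their differences from control at 0 mM were 2.31, 4.04, 2.10 and 2.16.

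RGT2, a sensor of high glucose, read -2.10 and -2.90 in TAL-ADH against -3.31 and -3.55 in control, a difference of 0.93 (SE 0.30). The main hexose transporters did not separate the strains. HXT7, a high-affinity transporter, differed by -0.49 (SE 0.27). HXT1, a low-affinity transporter induced by glucose, read 1.62 and -2.39 in TAL-ADH runs 1 and 2 and 0.56 and -2.03 in control runs 1 and 2, so that the runs of each strain were much further apart than the strains. HXT3, of the same kind, read 3.92 and 0.35 in TAL-ADH and 3.29 and 0.82 in control.

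Differences of lysine and branched-chain amino acid synthesis genes were mostly negative. Among the lysine genes, all 8 tested other than LYS2 had negative differences, 6 had both TAL-ADH arrays below both control arrays (75%, against 17.7% of all genes), and 4 were at an unadjusted p under 0.05 (50%, against 2.35%), with a median of -0.78. LYS20, a homocitrate synthase, read 1.53 and 1.20 in TAL-ADH against 3.09 and 2.78 in control, a difference of -1.57 (SE 0.42, limma adjusted p = 0.394). LYS12, homoisocitrate dehydrogenase, differed by -1.09 (SE 0.31), and LYS14, the activator of the lysine genes, by -0.73 (SE 0.23). Within the control slide all 8 were negative too, with a median of -0.60. For TAL minus control at 0 mM the median was -1.63, with 7 of 8 negative.

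Of 10 branched-chain genes besides LEU2, 9 had negative differences and 7 had both TAL-ADH arrays below both control arrays (70%, against 17.7% of all genes), with a median of -0.54. Beside LEU1, BAT1, the mitochondrial branched-chain aminotransferase, read 1.12 and 0.78 in TAL-ADH against 3.11 and 2.35 in control, a difference of -1.78 (SE 0.79). LEU4, the main isopropylmalate synthase, differed by -0.99 (SE 0.39) and ILV5, a reductoisomerase, by -0.98 (SE 0.49). Within the control slide the median was -0.19, with BAT1 at 0.02 and LEU1 at -0.54. For TAL minus control at 0 mM it was -1.48, with 9 of 10 negative. Arginine genes had a median of -0.05, and it was 0.53 for TAL-ADH run 1 and -0.60 for run 2, each minus the control mean. The control runs were apart in the same way, with a median of -0.88 for control run 2 minus run 1. Against the control of the same run number the arginine medians were 0.10 and -0.29.

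Differences of purine and one-carbon genes were mostly positive. Of 14 tested, 12 had positive differences, 7 had both TAL-ADH arrays above both control arrays (50%, against 21.0% of all genes), and 3 were higher at an unadjusted p under 0.05 (21.4%, against 4.70%), with a median of 0.38. GCV1, a subunit of glycine decarboxylase, read 0.69 and -0.33 in TAL-ADH against -0.64 and -0.74 in control, a difference of 0.87 (SE 0.34). ADE17, which acts near the end of purine synthesis, read -0.86 and -0.85 in TAL-ADH against -1.71 and -1.54 in control, a difference of 0.76 (SE 0.28), and MTD1, a folate dehydrogenase, differed by 0.60 (SE 0.23). The median within the control slide was 0.39.

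Differences of mitochondrial ribosomal protein genes, which serve translation inside the organelle, were mostly positive. Of 72 tested, 68 had positive differences, 40 had both TAL-ADH arrays above both control arrays (55.6%, against 21.0% of all genes) and none had both below, and 16 were higher at an unadjusted p under 0.05 (22.2%, against 4.70%). The median was 0.39, with 0.10 for TAL-ADH run 1 and 0.68 for run 2, each minus the control mean. The single differences ran from -0.20 for RSM7 to 1.05 for MRPL49, both structural subunits. MRPS9, of the small subunit, read -1.41 and -1.12 in TAL-ADH against -2.27 and -2.15 in control, a difference of 0.94 (SE 0.24, limma adjusted p = 0.376), and MRPL25 differed by 0.96 (SE 0.23). Within the control slide 71 of 72 were positive, with a median of 0.52.

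**Figure D3:**
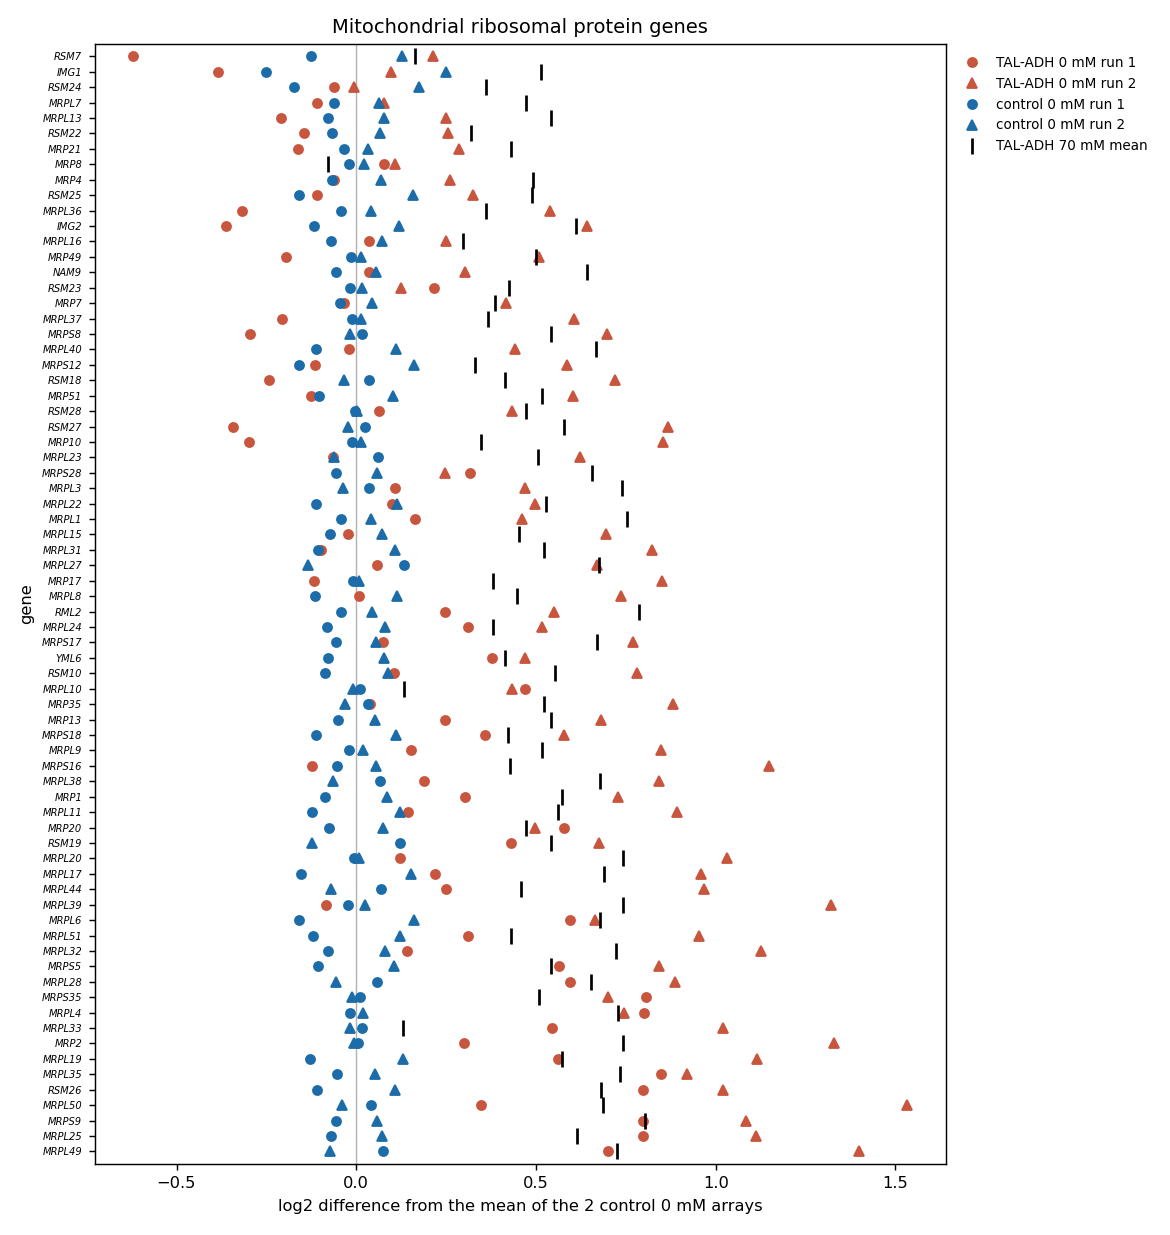
Log2 difference from the mean of the 2 control arrays (horizontal axis) for 72 mitochondrial ribosomal protein genes (rows), on each TAL-ADH array at 0 mM (red) and each control array at 0 mM (blue), with circles for run 1 and triangles for run 2. The black bar is the TAL-ADH mean at 70 mM; 68 of 72 mean differences at 0 mM are positive, and run 2 lies above run 1 in 66 genes.

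Other mitochondrial and ribosomal lists differed from this. The nuclear genes of oxidative phosphorylation had a median of -0.14, with 27 of 33 negative, and 4 were lower at an unadjusted p under 0.05 (12.1%, against 2.35% of all genes). COX6, a subunit of cytochrome c oxidase, read 1.21 and 1.25 in TAL-ADH against 1.97 and 1.96 in control, a difference of -0.74 (SE 0.22, limma adjusted p = 0.443). The 138 cytosolic ribosomal protein genes had a median of -0.19, which was -0.47 for TAL-ADH run 1 and 0.08 for run 2. Within the control slide their median was 0.13, with 123 of 138 positive. The 39 ribosome biogenesis genes went the other way between runs, with 0.32 for run 1 and -0.03 for run 2. Against the control of the same run number these were 0.29 and 0.05.

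Seripauperin genes, which encode cell wall proteins made when oxygen is low, had both TAL-ADH arrays above both control arrays in 22 of 24 cases (91.7%, against 21.0% of all genes), with a median of 0.54. PAU6 read 0.92 and 0.90 in TAL-ADH against 0.22 and 0.27 in control. The single differences ran from -0.06 to 0.68 and none had an unadjusted p under 0.05. These genes are near-identical copies whose probes cannot be taken as separate measurements. Among 33 proteasome genes 30 were negative and 19 had both TAL-ADH arrays below both control arrays (57.6%, against 17.7% of all genes), with a median of -0.26, which was -0.05 within the control slide. PRE8, a core subunit, differed by -0.56 (SE 0.24) and was the one proteasome gene at an unadjusted p under 0.05 (3.03%, near the 2.35% of all genes that were lower).

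Heat shock genes had no common direction between runs. The median was 0.02 over 29 heat shock protein and chaperone genes, with 0.27 for TAL-ADH run 1 and -0.62 for run 2, and none was at an unadjusted p under 0.05. Control run 2 minus control run 1 had a median of -0.40. Against the control of the same run number the medians were 0.14 and -0.19. Over 31 oxidative stress genes the median was -0.09, and 20 were negative. Of these 31, 14 had both TAL-ADH arrays below both control arrays (45.2%, against 17.7% of all genes) and 2 had both above (6.45%, against 21.0%). At an unadjusted p under 0.05, 3 were lower (9.68%, against 2.35% of all genes) and 0 were higher (against 4.70%). GTT2, a glutathione transferase, read 0.84 and 0.57 in TAL-ADH against 1.63 and 1.72 in control, a difference of -0.97 (SE 0.24, limma adjusted p = 0.369). GSH1, which makes the first precursor of glutathione, differed by -0.68 (SE 0.26). In the glycerol genes GPP1, glycerol-1-phosphatase, read 2.77 and 2.83 in TAL-ADH against 3.70 and 4.28 in control, a difference of -1.19 (SE 0.36).

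**Figure D4:**
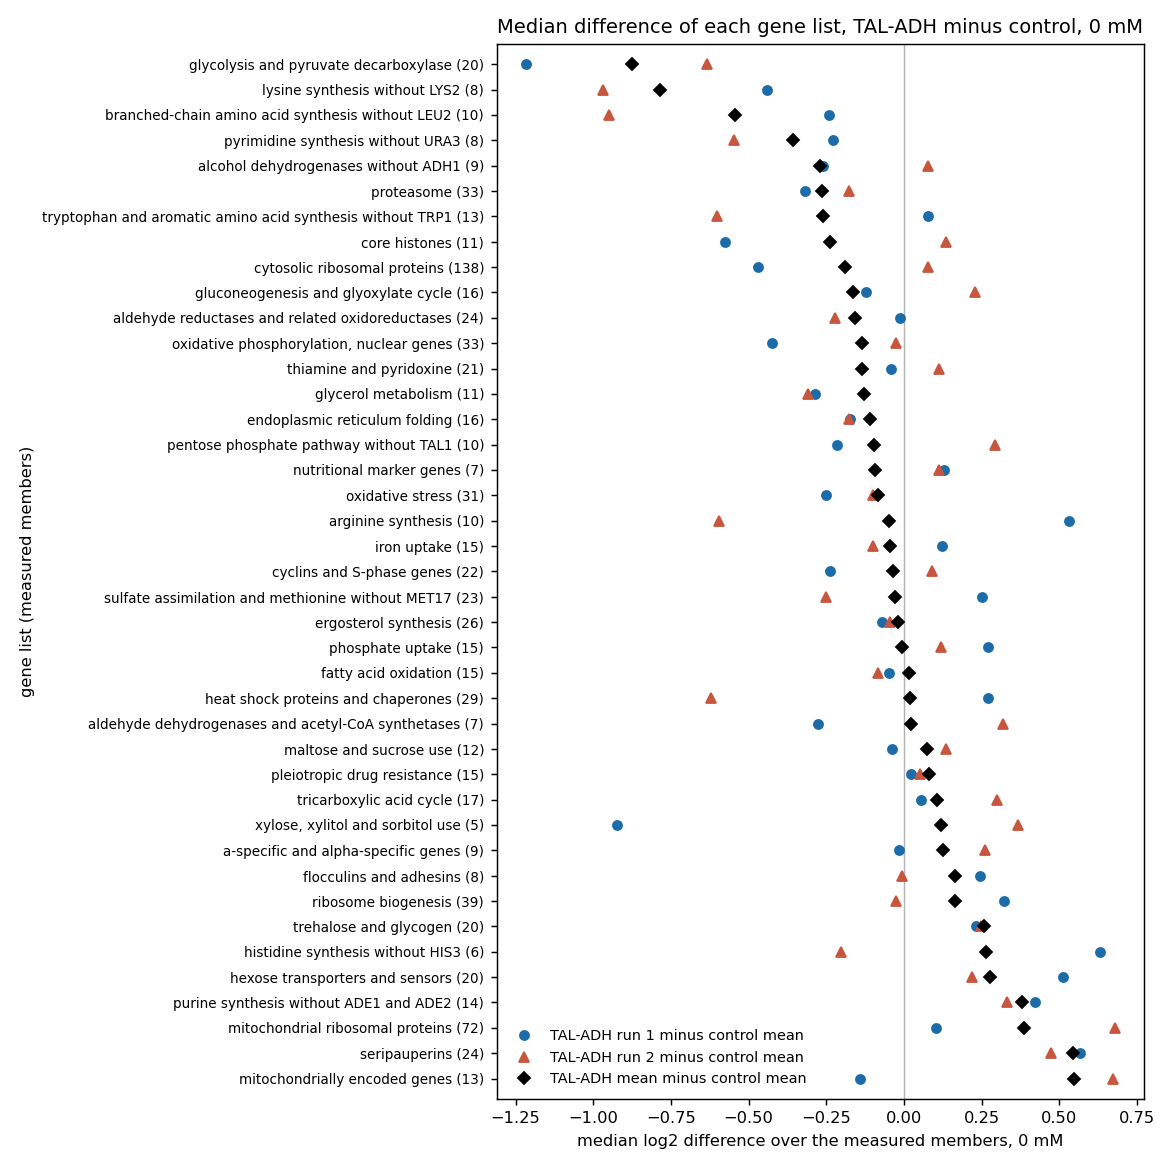
Median log2 difference (horizontal axis) over the tested members of each of 41 gene lists (rows, number of members in brackets). Diamonds are the TAL-ADH mean minus the control mean at 0 mM, circles and triangles are TAL-ADH runs 1 and 2 minus the control mean. Glycolysis has a median of -0.87 (-0.41 under quantile normalization, where lysine synthesis is lower), and both runs lie on the same side of 0 in it. Heat shock and arginine genes have runs on opposite sides. In these 2 lists control run 2 minus control run 1, not drawn, had medians of -0.40 and -0.88.

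The difference between strains also varied with the brightness of the probe. Genes were divided into 10 bins of like size by mean signal over all 12 arrays. In the dimmest bin the median difference was 0.50, and 120 of the 286 genes that were higher at an unadjusted p under 0.05 lay in it. In the brightest bin the median was -0.18, and 42 of the 143 lower genes lay there. Both TAL-ADH arrays were above both control arrays for 274 of 609 genes of the dimmest bin, and below for 183 of 609 of the brightest. The shares of all genes given above are thus low backgrounds for dim genes that were higher and bright genes that were lower, such as most of glycolysis. Minus the control mean, TAL-ADH run 2 stood at 0.75 and run 1 at 0.27 in the dimmest bin, whereas in the brightest bin the values were -0.05 for run 2 and -0.31 for run 1. Within the control slide, TAL-ADH at 70 mM minus control at 0 mM had 0.16 in the dimmest bin and -0.05 in the brightest. The 403 tested probes without a RefSeq locus had a median of 0.46, beside 0.00 for the 5680 with one. The part of this in the differences above was not tested.

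**Figure D5:**
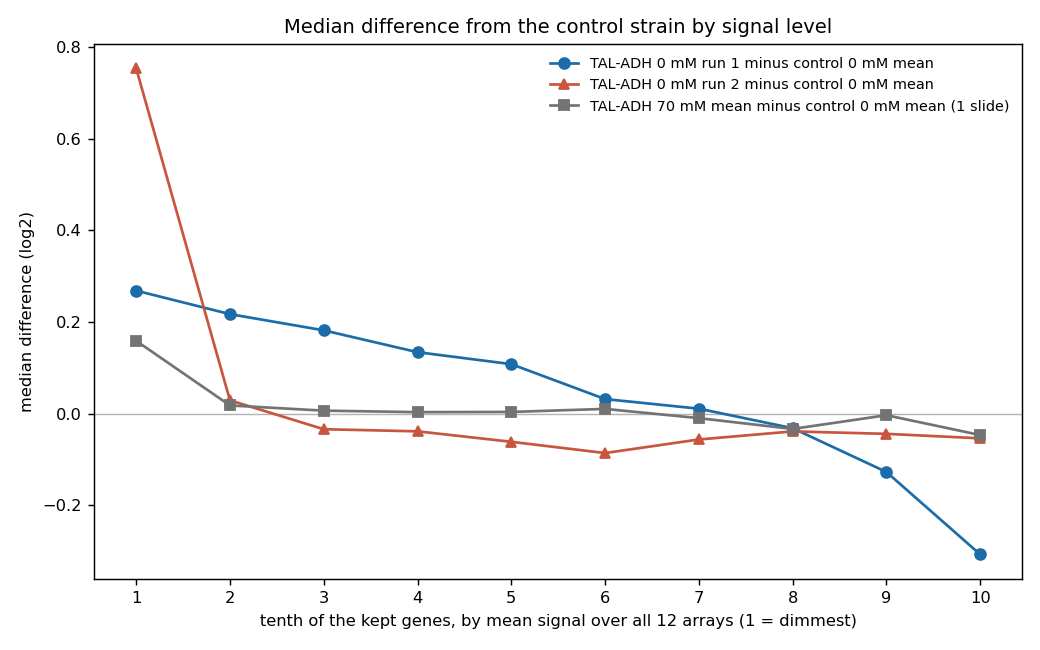
Median log2 difference from the control mean at 0 mM (vertical axis) in 10 bins of the tested genes ordered from dimmest (1) to brightest (10) by mean signal over 12 arrays. Circles and triangles are TAL-ADH runs 1 and 2 at 0 mM, and squares are the TAL-ADH mean at 70 mM; run 2 stands at 0.75 in the dimmest bin, and run 1 goes from 0.27 in the dimmest to -0.31 in the brightest bin.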

How the data were processed

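Per the labels and the file headers, total RNA was labelled with Cy3, hybridised to single-colour Agilent arrays and read with Feature Extraction 10.1.1.1. The intensity of each spot used here is the processed signal deposited by the authors, already background-subtracted per the file headers. The log2 of each spot was taken, unmarked spots of a probe (usually 7 per probe) were averaged, and the array's 75th percentile over gene probes was subtracted. A probe was detected where over 50% of its spots were well above background, and was tested where some group had it detected on both its arrays. The authors' deposited table gives log2 values of the same arrays, with each probe's 12-array median at 0 as found from its values (column medians -0.167 to 0.055); it served as an alternative.

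Limma 3.58.1 in R 4.3.3 fitted the means of all 6 groups, so that 12 arrays share 1 estimate of the spread (6 residual degrees of freedom), with Benjamini-Hochberg adjustment over 6083 genes and a threshold of 0.05. The test was checked on simulated data with independent noise on each array. That check does not cover shifts shared by slide or by run. The number of arrays limits the precision. Slide cannot be fitted beside group means. Named genes are TAL1, ADH1, XKS1 and marker genes, the 20 genes with the smallest p, and up to 3 members per list with the smallest p among those under 0.05; other list members were named after their values were seen, as examples of their list. The members and gene lists were chosen with earlier results of these data known, and the comparison with TAL-ADH at 70 mM within a slide, the bounds without 1 run and the division by brightness were added after the data were seen. Names come from RefSeq locus tags, which matched 5756 of 6256 probes. The normexp alternative used the median signal.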

Additional observations from a re-analysis of the deposited data

Results flagged for a closer look

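The strain difference in TAL1 differed between the arrays at 70 mM and those at 0 mM, as it did for 19.6% of all genes by the same test. The control arrays at 70 mM lay on yet another slide, so the groups compared span 3 slides. Slide and furfural thus cannot be told apart in this interaction, for TAL1 or any other gene. TAL-ADH minus control at 70 mM minus the same at 0 mM was 2.08 (SE 0.47, limma adjusted p = 0.0165). TAL1 read 3.58 and 4.46 in TAL-ADH at 70 mM against 0.54 and 0.89 in control at 70 mM, and 3.65 and 3.96 in TAL-ADH at 0 mM against 2.34 and 2.81 in control at 0 mM. The test lost its call without control run 2 at 0 mM (1.84, adjusted p = 0.0675) and without TAL-ADH run 2 at 70 mM (1.64, adjusted p = 0.0622).

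The same interaction for AI4 was -2.62 (SE 0.30, limma adjusted p = 0.00103). AI4 read -9.36 and -9.74 in TAL-ADH at 70 mM against -8.97 and -9.11 in control at 70 mM, and -7.48 and -7.17 in TAL-ADH at 0 mM against -9.45 and -9.42 in control at 0 mM. Of these 8 arrays it was well above background on TAL-ADH run 2 at 0 mM alone. The value was -1.40 (adjusted p = 0.0502) under quantile normalization and -1.18 (adjusted p = 0.516) under normexp. Groups of 2 arrays are too small to look for single outlying samples.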

How the results depend on the processing

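The number of genes passing adjustment was 1 (AI4), and it was also 1 under median scaling, no filter on dim probes, run number as a replicate block and the authors' deposited table. It was 0 under quantile normalization (417 genes at an unadjusted p under 0.05), normexp (262), detection on all 4 arrays (360), the 4 arrays alone (416) and the 6 arrays at 0 mM (332). Leaving out each array gave 0 to 62 genes. The 62, of which 59 were higher and 3 lower, came without TAL-ADH run 1, where the remaining TAL-ADH array is assumed to vary like the other groups, and every other array left out gave 0. A fit additive in strain, furfural and slide, which assumes no interaction and takes strain over both concentrations, gave 580 genes (294 higher, 286 lower) and a TAL1 difference of 2.21 (limma adjusted p = 0.0213).

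AI4 lost its call under quantile normalization (1.46, adjusted p = 0.307), normexp (0.54, adjusted p = 0.999), the 4 arrays alone (adjusted p = 0.543), the 6 arrays at 0 mM (adjusted p = 0.468) and each left-out array other than TAL-ADH run 1 (adjusted p from 0.0555 to 0.451). It was absent from the test limited to genes detected on all 4 arrays. For TAL1 the left-out arrays gave 0.99 to 1.47, and for ADH1 -1.28 to 0.079. ADH1 reversed without TAL-ADH run 1 (0.079), as did TRP1 (range -1.17 to 0.38). LYS2 (range -0.72 to 0.35) and MET17 (range -0.70 to 0.51) reversed without control run 1 (0.21 and 0.51) and without TAL-ADH run 2 (0.35 and 0.13). The interaction of ADH1 with furfural, 1.31 (adjusted p = 0.149), passed under quantile normalization (1.49, adjusted p = 0.0272) and without TAL-ADH run 2 at 0 mM (1.99, adjusted p = 0.0202). The median of glycolysis was -0.41 under quantile normalization, no longer the lowest of the lists.

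Nothing in the labels ties run numbers together, and they were not taken as pairs because 14 of 15 pairs of groups, not all, had deviations correlated over 0.1 (0.409 for TAL-ADH with control at 0 mM, 0.044 to 0.861 over all pairs). Deviations shared by run are thus in the data, and the unadjusted counts in the text do not take them into account. With run number as a block there were 853 genes at an unadjusted p under 0.05 against 429, and 1 after adjustment. Other causes of these shifts were not tested. Signal over background limits the probes that were dim in control.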
